A study of Mus musculus with 3 samples.

Results

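A set of 10 genes that mark states of resident and repair macrophages was followed through skin wound healing. The genes were *Lyz2*, *C1qa*, *C1qb*, *C1qc*, *Mrc1*, *Arg1*, *Chil3*, *Retnla*, *Trem2* and *Gpnmb*, chosen by symbol from the 32285 genes measured. The Visium assay was used, in which a tissue section lies on an array of barcoded spots and each captured RNA molecule is counted once by its unique molecular identifier (UMI). Wounds of C57BL/6J mice were taken at 3 times after injury (Day 3, Day 7, Day 14), and a single section represents each time. The mice carried no transgene, were males of 7 to 12 weeks, and received full-thickness excisional wounds in shaved back skin. No unwounded section was analysed here, so a level on a given day could not be set against intact skin.

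Macrophages in a wound come from cells already resident in the skin and from blood monocytes that enter after injury. They clear debris and dead cells, and they pass through several expression states that are read from marker genes. C1q, the recognition part of the classical complement pathway, and the mannose receptor *Mrc1* are typical of resident and scavenging macrophages. *Arg1*, *Chil3* and *Retnla* are known as genes of alternative activation in the mouse, and *Trem2* and *Gpnmb* mark lipid-handling, phagocytic macrophages. Several of these genes are also used by other cells of the skin, such as *Lyz2* by neutrophils and *Gpnmb* by melanocytes.

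The Day 3 section was the smallest library, with 1772259 UMIs in 664 spots under tissue, against 4442962 UMIs in 549 spots for Day 7 and 4611723 UMIs in 697 spots for Day 14. Median UMIs per spot were 1513, 6687 and 4827. A spot can hold several cells of different types, and no cell-type makeup was estimated. Levels are given as CPM, the UMIs of a gene per 1000000 UMIs of all genes over the spots under tissue, with an exact Poisson 95% interval. Intervals of levels and ratios cover counting error only. Intervals of shares of spots count each spot as independent, although neighbouring spots can be alike, so they can be too narrow. With 1 section for each day the variation between animals is unknown and no test between days was possible. In such pooled values, fewer cells of a type and less RNA per cell cannot be told apart. As a check of the label, the general macrophage genes *Csf1r*, *Adgre1* and *Cd68* were present on every day, with Day 3 levels of 226, 100.4 and 95.9 CPM and Day 14 levels of 79.8, 45.1 and 26.0. The array positions carry the same barcodes on the 3 slides, and 501 barcodes were under tissue on both Day 3 and Day 14, against 0 for the other pairs of days. A shared barcode names a position on the array and not a shared cell.

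Most of the macrophage genes were highest on Day 3 and lowest on Day 14. A gene was counted when it had at least 50 UMIs over the 2 sections compared, and was called higher or lower at a 2-fold difference or more. In this comparison 9 of the 10 genes were counted, and *Chil3* was too rare. On Day 7 against Day 3, *Mrc1*, *Arg1* and *Retnla* were called lower, 3 of the 9, where 6.49% of all counted genes were lower. None was called higher, where 8.04% of all genes were higher. On Day 14 against Day 3, 7 of the 9 were called lower beside 6.83% of all genes, and the exceptions were *Retnla* and *Gpnmb*. On Day 14 against Day 7, 6 of the 9 were called lower beside 7.34% of all genes, namely *Mrc1*, *Trem2*, *Lyz2* and the C1q genes. None of the 9 was called higher on Day 14, where 14.4% of all genes were higher than on Day 3 and 10.9% were higher than on Day 7. The median log2 difference of the 9 genes was -0.67, -1.97 and -1.25 for these 3 comparisons, beside 0.04, 0.18 and 0.13 over all counted genes.

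**Figure D1:**
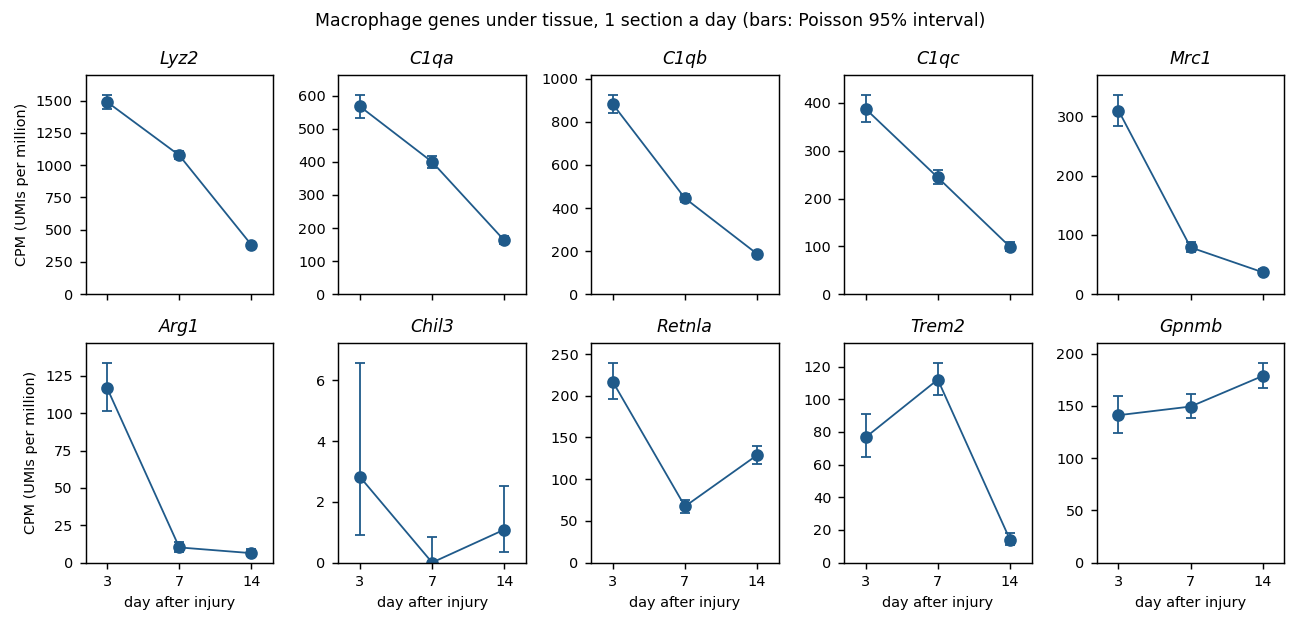
Pooled level of each of the 10 genes (y axis, CPM, from 0, 1 scale for each gene) on each day after injury (x axis); points are the single section of each day and bars the Poisson 95% counting interval. *Lyz2*, the C1q genes, *Mrc1* and *Arg1* were highest on Day 3, *Trem2* was highest on Day 7 at 112 CPM, and *Gpnmb* stayed between 141 and 179 CPM.

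The 3 genes of C1q encode the A, B and C chains that assemble into a single molecule, and they lie side by side on the minus strand of mouse chromosome 4. In the GENCODE annotation of GRCm38, *C1qb* lies at chr4:136880129-136886187, *C1qc* at chr4:136889804-136893065 and *C1qa* at chr4:136895917-136898803. The other members lie on other chromosomes or far apart, *Mrc1* at chr2:14229392-14332057, *Trem2* at chr17:48346401-48354147 and *Gpnmb* at chr6:49036546-49070929, all on the plus strand. The 250 bases before the RefSeq start of each gene were read for the 8 members that had a promoter entry. The letters GGAAGT, or their reverse complement ACTTCC, were searched for on both strands, a form of the GGAA core that ETS factors such as the myeloid regulator PU.1 are known to bind. The letters were chosen after these same windows had been seen, so their share among the members cannot be weighed against that of all genes. They were found in 6 of the 8 windows, those of *Mrc1*, *Chil3*, *Retnla*, *C1qb*, *C1qc* and *Lyz2*. Over all genes they were in 6485 (19.74%) of 32851 windows of the same length. The windows of *Trem2* and *Gpnmb* held no copy. Printed below are a C1q gene and *Mrc1*, with the match in capitals, and the windows of *Trem2* and *Gpnmb* without it. Each is written 5′ to 3′ along the strand of the gene (GRCm38.p6, RefSeq), *Mrc1* at chr2:14229164-14229413, *C1qb* at chr4:136886201-136886450, *Trem2* at chr17:48346151-48346400 and *Gpnmb* at chr6:49036268-49036517.
Mrc1: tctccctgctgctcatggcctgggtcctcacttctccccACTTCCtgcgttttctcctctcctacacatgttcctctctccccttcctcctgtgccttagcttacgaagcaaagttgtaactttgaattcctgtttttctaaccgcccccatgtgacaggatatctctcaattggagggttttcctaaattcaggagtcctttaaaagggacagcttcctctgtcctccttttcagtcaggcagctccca
C1qb: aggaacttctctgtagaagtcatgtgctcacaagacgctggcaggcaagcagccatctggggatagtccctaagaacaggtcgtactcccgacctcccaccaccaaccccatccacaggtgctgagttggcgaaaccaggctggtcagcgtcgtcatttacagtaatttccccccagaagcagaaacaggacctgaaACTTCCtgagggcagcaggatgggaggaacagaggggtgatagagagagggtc
Trem2: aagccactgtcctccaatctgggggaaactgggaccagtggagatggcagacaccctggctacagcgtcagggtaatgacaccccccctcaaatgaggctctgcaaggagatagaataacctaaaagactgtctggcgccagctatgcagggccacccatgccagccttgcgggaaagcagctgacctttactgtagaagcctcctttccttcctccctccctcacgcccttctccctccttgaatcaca
Gpnmb: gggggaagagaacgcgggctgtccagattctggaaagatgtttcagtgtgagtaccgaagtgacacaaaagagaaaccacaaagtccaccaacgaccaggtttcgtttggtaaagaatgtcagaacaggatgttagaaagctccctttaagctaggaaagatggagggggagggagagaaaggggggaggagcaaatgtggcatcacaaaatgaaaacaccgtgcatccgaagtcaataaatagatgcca
The match began 211 bases before the start in *Mrc1* and 53 bases before it in *C1qb*. In *Lyz2* it began 100 bases before the start and in *C1qc* 195, while *Chil3* held 2 copies, at 60 and 46 bases. The windows of *Mrc1*, *Retnla*, *Lyz2* and *C1qc* overlapped the GENCODE gene by 22, 58, 49 and 151 bases, since GENCODE starts these genes further upstream than RefSeq. A match of letters is a description of the window and not a measured binding site.

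*Lyz2*, which encodes the lysozyme of myeloid cells, had 1489 CPM on Day 3, then 1076 on Day 7 and 382 on Day 14. The counting intervals of the 3 days did not overlap, and the Day 14 level was 3.90-fold below that of Day 3. The near-identical gene *Lyz1* had 0.0417 UMIs for each *Lyz2* UMI on Day 3, 0.00648 on Day 7 and 0.0425 on Day 14, and a small part of the *Lyz2* reads may be shared with it. *C1qa* had 567 CPM on Day 3, 399.7 on Day 7 and 163 on Day 14. *C1qb* had 882, 446 and 187 CPM on these days, and *C1qc* had 388, 244 and 99.3. All 3 chains were thus highest on Day 3 and lowest on Day 14, with log2 differences of -1.80 for *C1qa* (95% interval -1.94 to -1.66), -2.24 for *C1qb* (-2.36 to -2.11) and -1.97 for *C1qc* (-2.14 to -1.79) between these days. The chains kept nearly the same proportion from Day 7 to Day 14, with 1.12 and 1.15 UMIs of *C1qb* for each UMI of *C1qa*, and *C1qb* was relatively higher on Day 3 at 1.56 (1.44 to 1.69). The ratio of *C1qc* to *C1qa* was 0.684, 0.611 and 0.610 on the 3 days, with overlapping intervals.

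*Mrc1*, the mannose receptor that takes up glycoproteins, differed more from Day 3 to the later days than the C1q genes did. It had 309.8 CPM (284 to 337) on Day 3, then 79.0 (71.0 to 87.7) on Day 7, and 37.1 (31.7 to 43.1) by Day 14. The Day 3 section thus held 3.92 times the level of Day 7 and 8.35 times that of Day 14. From Day 7 to Day 14 the log2 difference was -1.09, beside -1.296, -1.25 and -1.298 for *C1qa*, *C1qb* and *C1qc*. For each UMI of *C1qa* there were 0.546 UMIs of *Mrc1* on Day 3 (0.491 to 0.607), against 0.198 on Day 7 (0.176 to 0.222) and 0.228 by Day 14 (0.192 to 0.269). *Mrc1* was therefore relatively high against C1q on Day 3. The list of 12 other genes of resident macrophages had 11 counted genes on Day 7 against Day 3, of which 6 were lower and 0 higher, with a median log2 difference of -1.12. On Day 14 against Day 3, 8 of 11 were lower, and on Day 14 against Day 7, 3 of 9. The scavenger receptor *Cd163* had 69.97 CPM on Day 3, then 4.05 on Day 7 and 5.20 on Day 14. The chemokine *Pf4* had 508 CPM on Day 3, 114 on Day 7 and 40.8 on Day 14, and *Lyve1*, a hyaluronan receptor of perivascular macrophages and lymphatic vessels, had 24.3, 3.60 and 2.82. The transcription factor *Maf* did not follow these genes, with 209.9, 213 and 246 CPM, and it was called in none of the comparisons.

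*Arg1* encodes arginase 1, which breaks down arginine to ornithine and urea, and it had the largest difference of the set. It was counted 207 times on Day 3, 45 times on Day 7 and 29 times on Day 14. This gave 117 CPM (101 to 134) on Day 3, then 10.1 (7.39 to 13.6) on Day 7, and 6.29 (4.21 to 9.03) by Day 14. The Day 3 level was 11.5 times that of Day 7 and 18.6 times that of Day 14, and the intervals of the latter days overlapped. On Day 3 its UMIs lay in 86 of 664 spots, with up to 22 in a single spot. *Chil3*, the chitinase-like protein Ym1, was at the edge of detection with 5, 0 and 5 UMIs. Its level was 2.82 CPM (0.916 to 6.58) on Day 3 and 1.08 (0.352 to 2.53) on Day 14, and the count of 0 on Day 7 allowed up to 0.830 CPM. The interval of Day 7 thus lay below that of Day 3, on 5 UMIs against 0, and the other pairs of days overlapped. The near-identical gene *Chil4* had no UMI on any day.

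*Retnla*, the secreted protein RELMα that is induced by interleukin-4, went its own way. Its level was 217 CPM (196 to 239) on Day 3, then 67.3 (59.9 to 75.4) on Day 7, and 129 (119 to 140) by Day 14. It was thus lowest on Day 7, and on Day 14 it was 1.91 times as high as on Day 7. UMIs of *Retnla* were in 25.5%, 37.9% and 45.5% of the spots on these days, which differed in depth. With each spot thinned to 1000 UMIs the shares were 16.7%, 7.62% and 12.2%, in the same order as the levels. Among 10 other genes of alternative activation, 5 of 6 counted genes were lower on Day 7 than on Day 3, and 5 of 8 were lower and 1 higher on Day 14 than on Day 3. The lectin *Clec10a* had 264 CPM on Day 3, 44.6 on Day 7 and 41.2 on Day 14, and the interleukin-4 receptor chain *Il4ra* had 94.8, 44.8 and 19.1. The gene that was higher was *Egr2*, a transcription factor induced in alternatively activated macrophages, at 7.90, 6.98 and 25.8 CPM. In the spots that held no UMI of the melanocyte list described below, *Retnla* had 219.7, 76.7 and 269 CPM, so that there it was highest on Day 14.

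*Trem2*, a lipid-sensing receptor, was highest on Day 7. It had 76.7 CPM (64.4 to 90.8) on Day 3, then 112 (103 to 122) on Day 7, and 14.1 (10.9 to 17.96) by Day 14. The Day 7 level was 1.46 times that of Day 3 and 7.95 times that of Day 14. *Gpnmb*, a glycoprotein of lysosomes and melanosomes, was nearly level, with 141 CPM (124 to 160) on Day 3, then 149 (138 to 161) on Day 7, and 179 (167 to 191) by Day 14. The pair thus parted on Day 14, when 12.7 UMIs of *Gpnmb* (9.84 to 16.6) were counted for each UMI of *Trem2*, against 1.84 (1.49 to 2.28) on Day 3 and 1.33 (1.19 to 1.501) on Day 7. Of the 12 other genes of lipid handling and lysosomes, 0 of 12 were called on Day 7 against Day 3, 6 were lower on Day 14 than on Day 3 and 5 were lower on Day 14 than on Day 7. Lipoprotein lipase (*Lpl*) had 467, 376 and 157 CPM, the lysosomal lipase *Lipa* 49.7, 63.9 and 14.5, and the protease cathepsin B (*Ctsb*) 3383, 2078 and 916. The tetraspanin *Cd9* had 287, 187 and 365 CPM and was called in neither direction.

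Markers of melanocytes were far higher on Day 14, and *Gpnmb* was higher too, but by less than 2-fold. The summed level of 10 melanocyte genes was 50.2 CPM (40.3 to 61.8) on Day 3, then 66.6 (59.3 to 74.7) on Day 7, and 598 (576 to 621) by Day 14. Of the 9 melanocyte genes counted, 8 were called higher on Day 14 than on Day 3, and on Day 3 *Tyr*, *Slc45a2*, *Oca2* and *Slc24a5* were at 0 UMIs. In the spots that held no UMI of the list, *Gpnmb* had 109 CPM (92.3 to 127) on Day 3, then 144 (129 to 160) on Day 7, and 95.7 (68.7 to 129.9) by Day 14. There the direction turned, since the log2 difference of Day 14 to Day 7 was -0.59 (-1.10 to -0.12) in place of 0.26 (0.11 to 0.41) in all spots. The spots without melanocyte UMIs were shallow on Day 14, 155 spots with a median of 2697 UMIs against 6305 in the other spots. They also differed in other genes, with *Retnla* at 269 CPM against 129 over all spots under tissue. *Trem2* in these spots was 82.0, 117 and 21.02 CPM, in the same order as in all spots.

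Set against myeloid genes of the same section, the genes moved apart. For each 100 UMIs of *Lyz2* there were 20.8 UMIs of *Mrc1* on Day 3, 7.34 on Day 7 and 9.70 on Day 14. *Arg1* had 7.84, 0.941 and 1.65 per 100 *Lyz2* UMIs, so that both genes were relatively highest on Day 3. *Trem2* had 5.15, 10.4 and 3.69, with its peak on Day 7 kept. *Gpnmb* had 9.47 (8.29 to 10.8), 13.9 (12.8 to 15.1) and 46.7 (43.0 to 50.8), and *Retnla* had 14.6 (13.04 to 16.2), 6.25 (5.54 to 7.03) and 33.7 (30.7 to 37.0). Both were relatively highest on Day 14, while *C1qa*, at 38.1, 37.1 and 42.6, and *C1qc*, at 26.0, 22.7 and 26.0, moved less against *Lyz2*. *C1qb* had 59.2 (55.6 to 63.1), 41.4 (39.3 to 43.6) and 49.0 (45.1 to 53.2), and was relatively lowest on Day 7.

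Neutrophils also use *Lyz2*, and their genes were far higher on Day 3, so *Csf1r*, the receptor for the macrophage growth factor CSF1, was used as a second yardstick. Its counts were 400, 500 and 368 UMIs. For each 100 UMIs of *Csf1r*, *Mrc1* had 137 (120 to 157), 70.2 (61.1 to 80.6) and 46.5 (38.5 to 55.9) UMIs, and *Gpnmb* had 62.5, 133 and 224. *C1qa* had 251 (224 to 283), 355 (322 to 393) and 204 (179.9 to 232) UMIs per 100 of *Csf1r*. The C1q genes were therefore lower on Day 14 than on Day 7 against *Csf1r* but slightly higher against *Lyz2*, and *Mrc1* turned in the same way. The peak of *Trem2* on Day 7 and of *Gpnmb* and *Retnla* on Day 14 held with both genes.

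**Figure D2:**
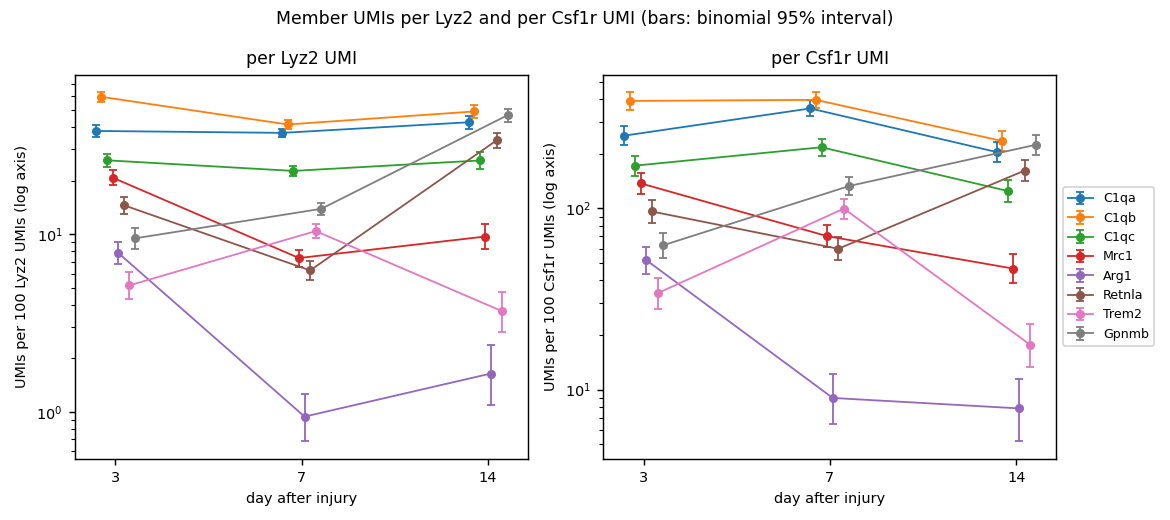
UMIs of 8 of the genes per 100 UMIs of *Lyz2* (left) and per 100 UMIs of *Csf1r* (right) on log y axes, for the section of each day (x axis, day after injury); bars are binomial 95% counting intervals. *Gpnmb* per 100 *Lyz2* UMIs went from 9.47 on Day 3 to 46.7 on Day 14, and *Arg1* from 7.84 to 1.65. The ratios are over all spots under tissue and do not show in which cells a gene lay.

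On Day 3 *Arg1* lay among neutrophils and macrophages. Spots with at least 500 UMIs were ranked by the CPM of a marker list, and the 25% richest in the list were set against the others of the section. In the 130 spots richest in neutrophil genes *Arg1* had 396 CPM, against 49.4 in the other 390 spots, a log2 difference of 3.00 (2.57 to 3.44). In those richest in general macrophage genes it had 317 CPM against 47.5, a difference of 2.74 (2.298 to 3.19). It was low where collagen genes were high, with 40.7 CPM against 160 (-1.97), and in muscle-rich spots, with 13.4 against 131 (-3.29, -5.58 to -1.73). The neutrophil-rich and macrophage-rich spots of Day 3 were partly the same, with 72 of 130 shared. On Day 7 and Day 14 the *Arg1* differences were 0.62 and -0.24 in the spots richest in the neutrophil list. In macrophage-rich spots the *Arg1* differences were -0.05 and -0.37, and all these intervals held 0. On Day 7 *G0s2* gave 378 of the 600 UMIs of the neutrophil list. On Day 14 *Il1r2* gave 175 and *G0s2* 110 of its 416 UMIs. These later spots are therefore named for the list and need not be rich in neutrophils. All 5 *Chil3* UMIs of Day 3 lay in the neutrophil-rich spots, as did 4 of the 5 on Day 14. The summed level of the 10 neutrophil genes was 1327 CPM on Day 3, 135 on Day 7 and 90.2 on Day 14. Of 7 counted genes 6 were lower on Day 7 than on Day 3, and *Trem1* and *Ly6g* were at 0 UMIs on Day 7 and Day 14. Outside the neutrophil-rich spots *Arg1* was still highest on Day 3, at 50.9 CPM against 9.03 and 6.57. The part of neutrophils in the *Arg1* level was not tested.

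*Trem2* and *Gpnmb* lay in different surroundings on Day 3. *Trem2* had 181 CPM in macrophage-rich spots against 41.4 elsewhere (log2 difference 2.13, 1.61 to 2.65), and 47.0 in matrix-rich spots against 94.1 (-1.003, -1.64 to -0.41). *Gpnmb* had the opposite pattern, with 91.4 CPM in macrophage-rich spots against 159 (-0.79, -1.31 to -0.30) and 257 in matrix-rich spots against 75.3 (1.77, 1.38 to 2.17). It was also higher in keratinocyte-rich spots of Day 3, at 192 CPM against 104, and 58 of these 130 spots were matrix-rich too. In the 55 Day 3 spots with a melanocyte UMI *Gpnmb* had 269 CPM, against 109 in the others. Which cells held *Gpnmb* was not tested. On Day 7 both genes were higher in macrophage-rich and in matrix-rich spots. These 2 sets of spots were partly the same, with 62 of 135 shared on Day 7 and 79 of 172 on Day 14, against 23 of 130 on Day 3. The difference for matrix-rich spots was 0.62 (0.36 to 0.88) for *Trem2* and 0.48 (0.26 to 0.70) for *Gpnmb*, and for macrophage-rich spots it was 0.86 (0.60 to 1.13) and 0.64 (0.41 to 0.87). On Day 14 *Trem2* remained tied to macrophage-rich spots, at 29.6 CPM against 9.92, while *Gpnmb* had 201 against 173, with an interval that held no difference (-0.02 to 0.45). The 10% of Day 3 spots richest in neutrophil genes held 1 UMI of *Trem2*, which gave 14.7 CPM (0.372 to 81.9), whereas the next richest spots, up to 25%, held 181 CPM (134 to 239) and the others 60.0 (47.9 to 74.2). The lowest of these values overlapped that of the other spots. *Lyz2* was also highest in the middle group, with 1220, 2994 and 1228 CPM, and *Arg1* had 367, 403 and 49.4.

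*Retnla* lay with muscle and fat. In muscle-rich spots it had 362 CPM on Day 3, 159 on Day 7 and 326 on Day 14, against 197, 58.8 and 104 elsewhere. The log2 differences were 0.88 (0.51 to 1.24), 1.43 (0.997 to 1.84) and 1.65 (1.38 to 1.91), so the gene was higher there on every day. In fat-rich spots the differences were 0.98 (0.65 to 1.302), 0.31 (-0.09 to 0.70) and 1.18 (0.91 to 1.44). On Day 3 this came from spots of middling muscle content, since the 10% of spots richest in muscle genes had 65.9 CPM, the next richest 513 and the others 197. The muscle-rich and fat-rich spots were partly the same, with 49 of 130 shared on Day 3, 17 of 135 on Day 7 and 92 of 172 on Day 14. The muscle list summed to 39436, 53306 and 59977 CPM and the fat list to 7224, 7269 and 1935. Whether the *Retnla* level depended on the muscle or fat of a section was not tested. *Gpnmb* was lower in muscle-rich spots on each day (-3.16, -1.25 and -1.42), and the C1q genes were higher in matrix-rich spots on each day, by 0.37, 0.42 and 0.99 for *C1qa*.

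**Figure D3:**
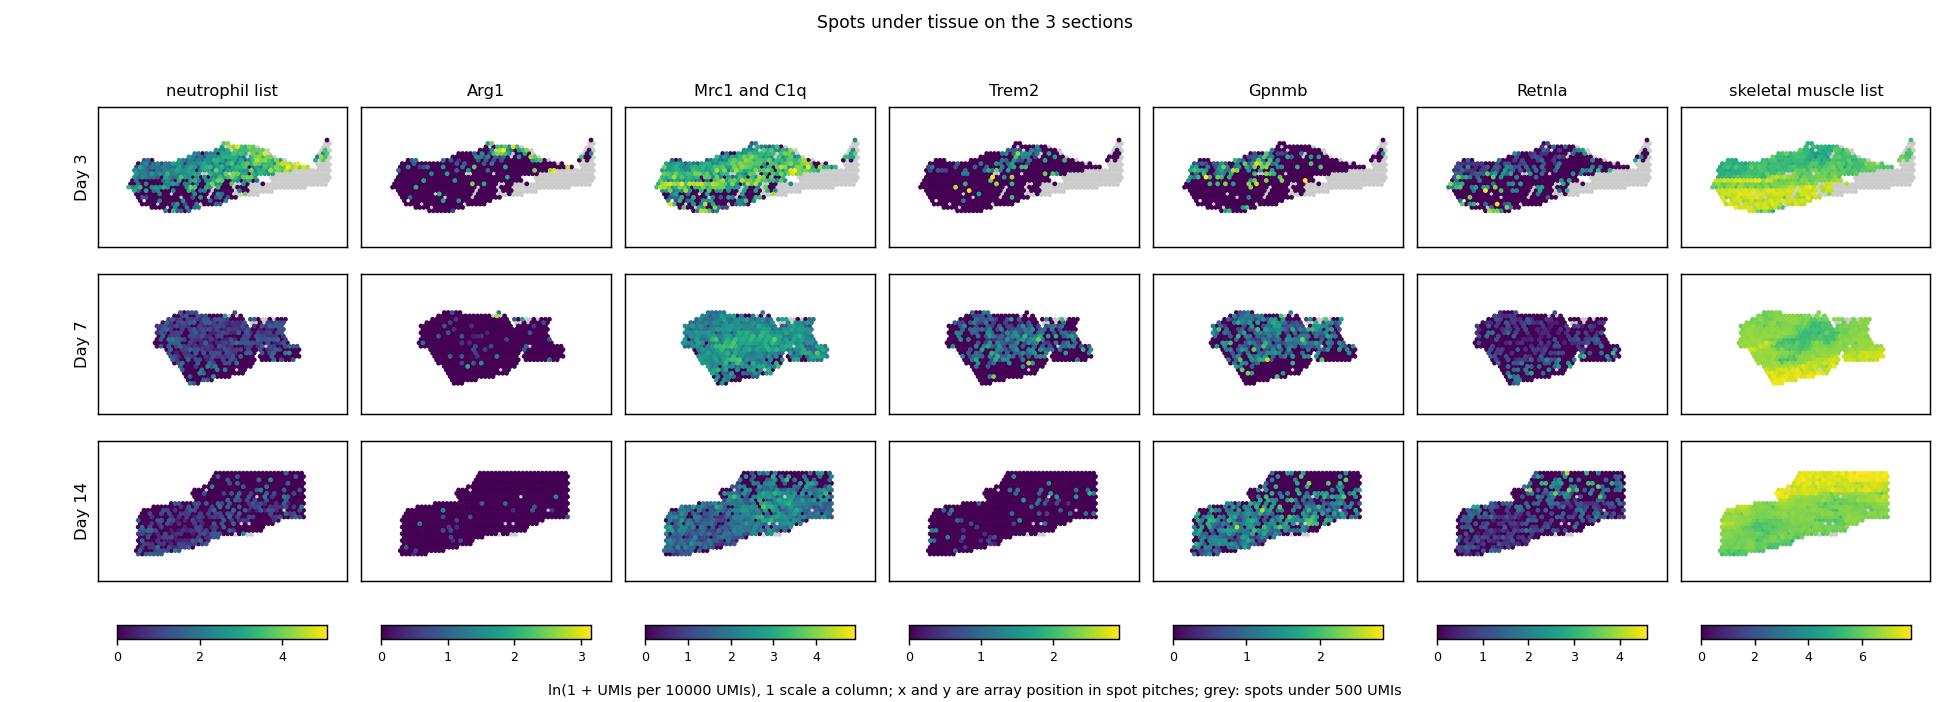
Spots under tissue on the sections of Day 3, Day 7 and Day 14 (rows), placed by array position in spot pitches and coloured by the natural log of 1 plus UMIs per 10000 UMIs, with 1 colour scale for each column; grey spots hold fewer than 500 UMIs. On Day 3 *Arg1* lies in a small area on the side rich in neutrophil genes, *Gpnmb* lies beside that area, and the muscle-rich side holds little of either.

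**Figure D4:**
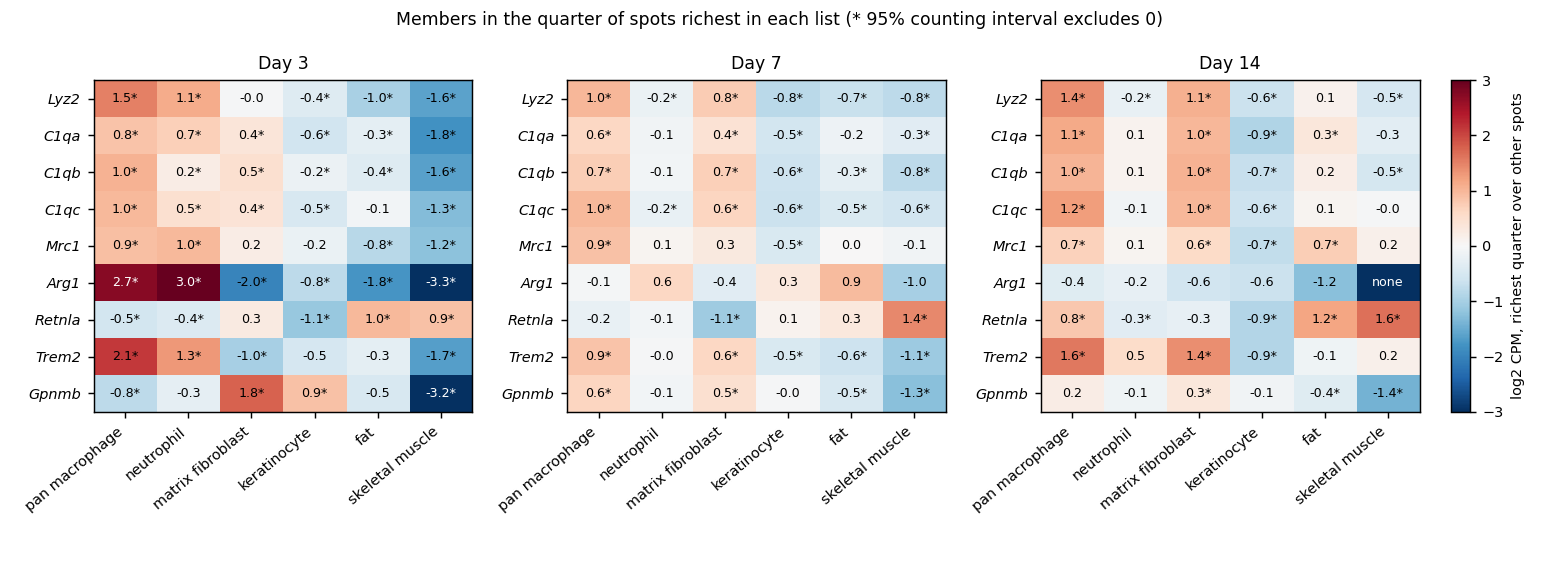
Log2 difference in CPM of 9 of the genes (rows) between the 25% of spots richest in a marker list (columns) and the other spots of the section, on each day; red is higher and blue lower in the rich spots, colours end at 3 and -3, and a star marks a 95% counting interval without 0. On Day 3 *Arg1* stands out beside the neutrophil list at 3.00, and *Trem2* and *Gpnmb* have opposite signs beside the macrophage and matrix lists.

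Few spots held all 3 states at once, and few held *Arg1* or *Chil3* at all. To set spots of unlike depth side by side, each was thinned to 1000 UMIs, which left 426 Day 3 spots, 525 Day 7 spots and 679 Day 14 spots, with 238, 24 and 18 shallower spots left out. A UMI of *Mrc1* or C1q was then in 306, 309 and 242 spots, one of *Trem2* or *Gpnmb* in 60, 99 and 97, and one of *Arg1* or *Chil3* in 37, 9 and 3. On its own *Gpnmb* was in 45, 63 and 88 spots and *Trem2* in 22, 41 and 10, so their state rested mostly on *Gpnmb*. Spots with 1 state numbered 242, 277 and 266, and spots with 2 states 76, 70 and 38. All 3 states were in 3 spots on Day 3 and in 0 on the other days. With *Arg1* or *Chil3* in only 37, 9 and 3 spots, few such spots could occur. The count therefore does not show that the states avoid each other. On Day 3, 51 of 60 spots with *Trem2* or *Gpnmb* also held *Mrc1* or C1q, 85.0%, against 69.7% of the other spots, a difference of 15.3 percentage points (2.85 to 24.7). The difference was 7.14 points on Day 7 (-4.16 to 17.7) and 4.12 on Day 14 (-6.43 to 15.3), and both intervals held 0. Without thinning, in spots of unequal depth, the differences were 35.4, 23.3 and 26.7 points. Among the Day 3 spots with a *Lyz2* UMI the difference was gone, at 83.8% against 83.5%, whereas in spots with no *Lyz2* UMI it was 36.3 points (14.2 to 49.4).

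The overlap of *Arg1* and *Chil3* with *Trem2* and *Gpnmb* depended on the depth of the spots. No thinned spot of Day 3 or Day 7 held *Chil3*, so these days rest on *Arg1* alone. On Day 3, 3 of 37 spots with *Arg1* or *Chil3* held *Trem2* or *Gpnmb*, 8.11%, against 14.7% of the other spots, a difference of -6.55 points (-14.1 to 7.66). Thinned to 2000 UMIs the difference was 6.06 points, and without thinning it was 27.9 points on Day 3 and 15.3 on Day 7. On Day 7 the overlap was 0 of 9 spots and on Day 14 it was 0 of 3, which allowed shares of up to 33.6% and 70.8%. With *Mrc1* or C1q the share on Day 3 was 83.8% against 70.7%, a difference of 13.1 points (-3.33 to 24.2). *Arg1* did share spots with *Lyz2* on Day 3, where 29 of 37 spots with *Arg1* held it, 78.4% against 56.6% (21.8 points, 4.50 to 34.7).

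Some pairs of single genes shared spots on Day 3. On Day 3 *Gpnmb* was in 7 of the 22 thinned spots with *Trem2*, 31.8% against 9.41% of the others (22.4 points, 4.16 to 45.6), so the pair met in the same spots more than elsewhere although most of their UMIs lay in different surroundings. This was 0.21 points on Day 7 (-8.52 to 14.5) and -3.004 on Day 14 (-13.1 to 31.6). *C1qa* was in 56.4% of Day 3 spots with *Mrc1* against 35.8% of the others (20.6 points, 9.35 to 31.4), with 9.58 and -2.80 points later. *C1qb* followed *C1qa* by 22.6 points on Day 3 (12.6 to 32.02), then by 10.5 on Day 7 (1.71 to 19.5) and by 5.72 on Day 14 (-1.75 to 14.7). *Retnla* and *Mrc1* did not meet more often than apart on any day, with -2.86, -5.90 and -3.24 points.

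**Figure D5:**
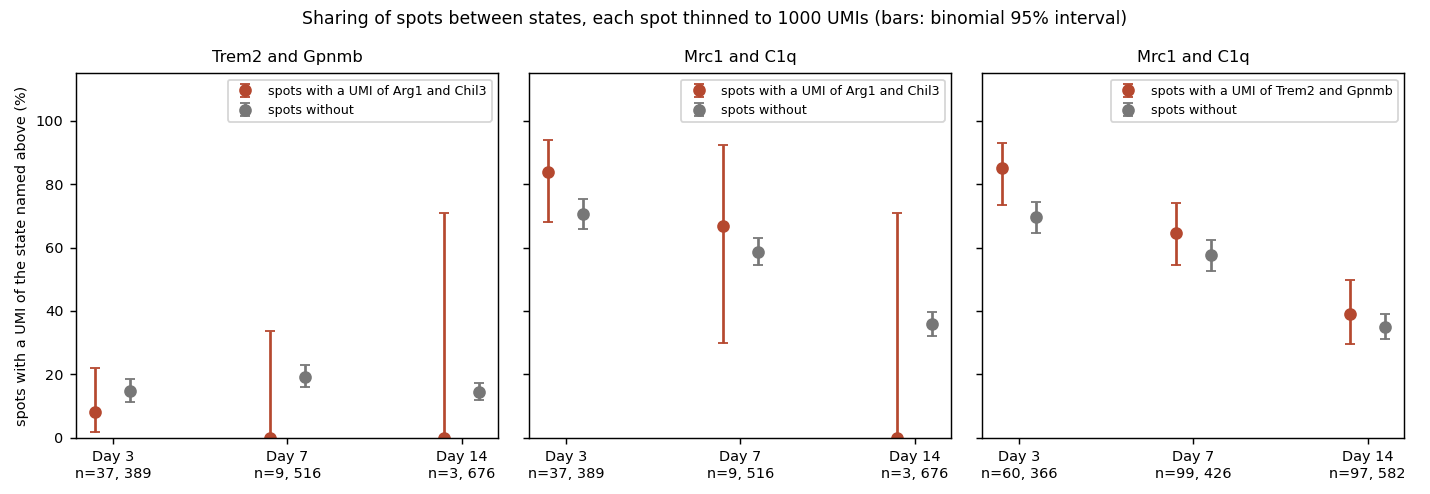
Share of spots with a UMI of the state named above each panel (y axis, %), among spots with (red) and without (grey) a UMI of a second state, on each day (x axis) with the numbers of spots below; all spots were thinned to 1000 UMIs and bars are binomial 95% intervals. The red and grey intervals come closest to parting on Day 3 in the right panel, at 85.0% and 69.7%.

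Neighbouring spots gave a like picture. On Day 3, of 151 spots that held no *Trem2* or *Gpnmb* UMI but touched a spot that did, 82.8% held *Mrc1* or C1q (75.8 to 88.4), against 60.5% of 215 spots that touched none (53.6 to 67.1). On Day 7 the shares were 62.2% and 49.7%, and on Day 14 they were 35.3% and 34.6%. Moran's I, which is 0 where neighbours are unrelated and rises as they become alike, was 0.331 for *Mrc1* with C1q on Day 3 over 426 thinned spots. It was 0.0966 on Day 7 and 0.0529 on Day 14, with levels that were lower too. Over the spots without thinning it was 0.374, 0.264 and 0.204, in the same order but with a smaller difference between days. For *Arg1* in thinned spots it was 0.140 on Day 3 and below 0 later.

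Across spots, the genes most like the *Mrc1* and C1q state were those of connective tissue. Pearson's r of log values over 520, 539 and 689 spots was averaged over the sections for 2970 genes, as a description, since spots share depth and neighbours. The highest were the collagen gene *Col1a2* at 0.462, *Col3a1* at 0.456 and *Col1a1* at 0.455, then the lipid carrier *Apoe* at 0.421 and *Sparc* at 0.417. *Trem2* with *Gpnmb* had much the same list, led by *Col1a1* at 0.353 and *Col1a2* at 0.351, with the collagen chaperone *Serpinh1* at 0.335. Most UMIs of this pair were of *Gpnmb*, 250 of 386 on Day 3, 664 of 1162 on Day 7 and 824 of 889 on Day 14. The list therefore need not hold for *Trem2* alone, which in matrix-rich spots had log2 differences of -1.003, 0.62 and 1.39 on these days. *Arg1* with *Chil3* had weaker neighbours, *Gjb2*, a gap junction gene of epidermis, at 0.176 and the protease inhibitor *Timp1* at 0.155, and the latter reached 0.385 on Day 3. *Lyz2* was most like *Col3a1* at 0.410, then *Col1a2* at 0.398 and *Col1a1* at 0.395, so these genes were not particular to the *Mrc1* and C1q state. The ranking used spots of unequal depth and was not repeated on thinned spots.

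Other myeloid lists put these levels in context. Of 10 general macrophage genes, 5 of 9 counted were lower on Day 7 than on Day 3, 8 of 9 on Day 14 than on Day 3 and 5 of 9 on Day 14 than on Day 7, with 0 higher. The lipopolysaccharide co-receptor *Cd14* had 292 CPM on Day 3, 11.3 on Day 7 and 4.77 on Day 14. Of the genes of inflammatory monocytes, 4 of 6, 5 of 7 and 1 of 5 counted genes were lower in these comparisons, with the chemokine receptor *Ccr2* at 149, 48.2 and 35.1 CPM and the matrix protein *Thbs1* at 445, 49.7 and 31.0. Other genes of that list were called in neither direction, the monocyte surface gene *Ly6c2* at 15.8, 17.1 and 29.3 CPM and the proteoglycan *Vcan* at 74.5, 119 and 110.2. Genes of dendritic and Langerhans cells moved less, with 1 of 6, 1 of 4 and 0 of 6 lower, and the migration receptor *Ccr7* higher on Day 7 and Day 14 than on Day 3. The lists of resident, alternative activation and inflammatory monocyte genes thus had their highest summed levels on Day 3, at 2522, 703 and 874 CPM, against 914, 198 and 240.0 on Day 14.

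The slides also held UMIs at spots that were not marked as tissue, 1703210, 6457066 and 4715272 on the 3 days. The macrophage genes were mostly lower there, with *Trem2* at 13.5 CPM outside against 76.7 in marked spots on Day 3, 35.5 against 112 on Day 7 and 6.15 against 14.1 on Day 14. *Arg1* was about equal, with 116 CPM outside and 117 in marked spots on Day 3. *Retnla* was higher outside, with 393 CPM against 217 on Day 3, 118 against 67.3 on Day 7 and 147 against 129 on Day 14. What lay under these spots was not tested.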

How the data were processed

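Skin wound sections of Day 3, Day 7 and Day 14, 1 for each day, were measured on the Visium platform. The authors made the matrices of raw UMI counts per gene and spot from the reads. The submitters' processing notes name Space Ranger 1.3.0 and the genome build mm10. The deposited counts were not normalized, and the deposited position lists say which spots lie under tissue. Of the 32285 gene identifiers 32158 were found in the GENCODE M21 annotation of GRCm38, the 10 genes among them. Promoter windows were taken from a RefSeq table of GRCm38.p6, which held 8 of the 10 genes.

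Days were taken from the sample labels. UMIs of spots under tissue were pooled for each section and scaled to CPM by its total. Exact Poisson, Clopper-Pearson and conditional binomial 95% intervals were used. Ratios against *Lyz2* or *Csf1r* were compared between days with a delta-method interval. PCR duplicates were removed by UMI. Intervals of levels and ratios cover counting error only, and those of shares of spots count each spot as independent. Thinning was without replacement (seed 1, 1000 UMIs). No doublet caller was run, since spots are regions and not cells. The study's own cell-type deconvolution was not used here.

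The 10 genes and the marker lists were chosen with earlier results of these data known. Genes named in the text were those 10, genes of the lists where a result turned on them, near-identical copies, and the 5 genes most correlated with each state across spots. Alternatives were other scalings, including TMM factors of edgeR 4.0.16 and size factors of DESeq2 1.42.0, other spots, other minimums, other denominators, other thinning and other list limits. The melanocyte-free and neutrophil-poor spots, the 10% bins and the pairs of single genes were added after the data were seen. The software was R 4.3.3 and Python 3.11.15 (pandas 2.3.3, scipy 1.17.1, numpy 2.4.6, matplotlib 3.10.9). The intervals and calls were tested on simulated data with known changes.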

Additional observations from a re-analysis of the deposited data

Results flagged for a closer look

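The surroundings of several genes differed between the sections, with intervals on opposite sides of 0 on different days. The differences between days were not tested, since each day had 1 section. All values are log2 differences of CPM between the 25% of spots richest in a list and the other spots, on Day 3, Day 7 and Day 14. *Trem2* was lower in matrix-rich spots on Day 3 and higher later (-1.003, 0.62 and 1.39). *Gpnmb* in macrophage-rich spots was lower on Day 3 and higher on Day 7 (-0.79, 0.64 and 0.22). *Retnla* in macrophage-rich spots was lower on Day 3 and higher on Day 14 (-0.54, -0.23 and 0.80). With the richest 10% of spots its Day 3 value was 0.22. In fat-rich spots *Mrc1* had -0.83, 0.0135 and 0.75, and *C1qa* had -0.30, -0.15 and 0.34. In the spots richest in the neutrophil list *Lyz2* had 1.103, -0.19 and -0.22, and *C1qc* had 0.47, -0.23 and -0.10. On Day 7 *G0s2* gave 378 of the 600 UMIs of this list. On Day 14 *Il1r2* gave 175 and *G0s2* 110 of its 416 UMIs. The spots of the 3 days need not be alike in neutrophils. In spots not marked as tissue, *Retnla* was 1.81, 1.76 and 1.14 times as high as in marked spots on the 3 days.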

How the results depend on the processing

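Of the values recomputed under an alternative, 532 were classed as the same, 229 as moved and 32 as reversed, and the cause was not tested. Some values classed as the same or as moved changed sign too. With another seed the Day 14 difference of *Mrc1* or C1q by *Arg1* or *Chil3* went from -35.8 to 61.3 points, classed as moved. The Day 3 difference of *Trem2* or *Gpnmb* by *Arg1* or *Chil3* changed sign at 2000 UMIs and was classed as the same. With the mean of spot CPM, 5 of the genes were lower on Day 7 than on Day 3, and *Trem2* with *Gpnmb* had a log2 difference of 0.00274 between Day 14 and Day 3. With all spots of the slide that difference was 0.0306, and 3 genes were lower on Day 14 than on Day 7. Per *Lyz2* UMI in all spots, *Mrc1* with C1q had -0.23 (Day 7 over Day 3) and *Trem2* with *Gpnmb* 0.90 (Day 14 over Day 7). With no minimum beyond 1 UMI, 19.6%, 24.4% and 18.8% of all genes were higher and 15.1%, 14.5% and 15.6% lower, in order of Day 7 to Day 3, Day 14 to Day 3 and Day 14 to Day 7. In spots with no melanocyte UMI, chosen after seeing the data, *Retnla* had 0.29 and *Gpnmb* -0.18 for Day 14 over Day 3, and *Gpnmb* had -0.59 for Day 14 over Day 7. There, and outside the neutrophil-rich spots, 1 gene (*Retnla*) was called higher on Day 14 than on Day 7.

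Per *Csf1r* UMI, *Arg1* with *Chil3* had -2.56 (Day 7 over Day 3) and 0.0378 (Day 14 over Day 7), and *Trem2* with *Gpnmb* had 1.27, 1.32 and 0.0559 in the 3 comparisons. *Mrc1* with C1q had 0.13, -0.64 and -0.77, and for Day 14 over Day 7 *Mrc1* had -0.60, *Arg1* -0.19, *C1qa* -0.80, *C1qb* -0.75 and *C1qc* -0.80. For Day 7 over Day 3, *C1qb* had 0.0193 and *C1qc* 0.34. Per UMI of the macrophage list, *Arg1* with *Chil3* had -2.57 and *Trem2* with *Gpnmb* 1.26 for Day 7 over Day 3, and the latter 0.48 for Day 14 over Day 7. *Mrc1* with C1q had 0.12 for Day 7 over Day 3, with *C1qb* at 0.00917 and *C1qc* at 0.33, and -0.34 for Day 14 over Day 7, with *Mrc1* at -0.17, *C1qa* at -0.37, *C1qb* at -0.33 and *C1qc* at -0.37.

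Without thinning, spots with *Arg1* or *Chil3* held *Trem2* or *Gpnmb* more often by 27.9 points on Day 3 and 15.3 on Day 7, and *Mrc1* or C1q by 31.0 on Day 3. Spots with *Trem2* or *Gpnmb* then held *Mrc1* or C1q more often by 35.4, 23.3 and 26.7 points on the 3 days. At 500 UMIs the share of *Mrc1* or C1q with *Arg1* or *Chil3* differed by -38.8 points on Day 7 and 45.5 on Day 14, and with another seed by 61.3 on Day 14, so these days rest on too few spots. With *Mrc1* alone the Day 7 difference for *Trem2* or *Gpnmb* was -5.58 points. In thinned spots the correlation of *Trem2* and *Gpnmb* with *Mrc1* and C1q was 0.137, 0.0716 and 0.0377 on the 3 days, and that with *Arg1* and *Chil3* was -0.0547 on Day 3.

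With the richest 10% of spots, the Day 3 log2 differences in neutrophil-rich spots were -0.61 for *C1qb*, -0.31 for *Lyz2*, -2.44 for *Trem2* and -1.94 for *Trem2* with *Gpnmb*. On Day 7, in the spots richest in the neutrophil list, they were 0.11 for *C1qc* and 0.13 for *Mrc1* with C1q. In keratinocyte-rich spots of Day 3 *Gpnmb* had -0.15 and *Trem2* with *Gpnmb* -0.58, and *Retnla* had 0.22 in macrophage-rich and -1.77 in muscle-rich spots. Unmarked spots at least 2 pitches from tissue had -1.76 and -1.19 for *Mrc1* with C1q and -2.35 and -1.61 for *Trem2* with *Gpnmb*, on Day 3 and Day 7. No paired analysis was possible because each day had 1 section and no test was made.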
